A study of Homo sapiens with 18 samples.

Results

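The account concerns 6 gene rows of a count table of RWPE1 cells: RP4-734G22.3 and the gene on the strand opposite to it, CASZ1, CTC-564N23.2 and the gene opposite to it, ZBED3, and the lncRNA-type rows RP5-977B1.11 and RP11-154D6.1. They were taken by name, 6 of 57773 rows in the table, and all 6 were among the 5816 rows with 10 counts or more in 3 or more libraries. RP4-734G22.3 was chosen for a fall with tamoxifen in the neutral line, and CTC-564N23.2 and RP11-154D6.1 for a fall with tamoxifen in the repressive line. The basis for RP5-977B1.11 was not stated, so it is counted as chosen by every comparison. The differences between lines with vehicle were also part of the choice, so all of these values are given as a description with no test. Tests below of tamoxifen effects on rows other than CASZ1 and ZBED3 reuse those vehicle libraries, so they are not independent of the choice. CASZ1 and ZBED3 were chosen by their position only.

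RWPE1 is a non-transformed human prostate epithelial cell line. Stable lines of 3 kinds, selected with blasticidin after lentiviral delivery, carried a MACC, a fusion of a DNA binding domain, a tamoxifen-responsive nuclear localization domain and a 3X FLAG tag: neutral (N, with the tag and no effector), repressive (R, with KRAB) or activating (A, with VP64). Each line received vehicle (ethanol) or tamoxifen for 48 hours, with 3 libraries described as biological replicates in each of 6 groups, and the tamoxifen dose stands as 1.5 uM in one label field and 1.25 uM in another. All 6 groups carried a construct, each effector was measured in 1 line, and line and construct cannot be told apart.

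CASZ1 encodes a zinc finger transcription factor, the homologue of Drosophila castor, with roles in cell fate and differentiation. ZBED3 encodes a BED-type zinc finger protein that binds Axin, the scaffold of the complex that marks beta-catenin for degradation in Wnt signalling. Antisense lncRNAs are transcribed from the strand opposite to a protein-coding gene, and in a stranded library the direction of a read alone decides to which of the 2 overlapping rows it is counted. The setting that the quantification used for strand is not given in the sources used here. With the opposite setting, a read from the part of CASZ1 or ZBED3 that lies under exons of its antisense partner would fall in the partner's row. Reads from the rest of either gene would not, and the parts covered are given below. The counts of abundant genes lay on that side: GAPDH, a glycolytic enzyme gene, averaged 328 counts per library against 27220 in the row opposite to it, RP5-940J5.9, and FTH1, the ferritin heavy chain gene, averaged 279.5 against 59590 in BEST1. This is the distribution that a reversed strand setting gives, and such a setting applies to every row. A name below therefore stands for a row of the table, and the CASZ1 and ZBED3 rows are not taken as levels of those genes, nor the rows opposite to them as levels of a lncRNA.

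The edge of an exon shows how closely the rows of one pair share their sequence. Both lines below cover the 60 bases of chr1:10700087-10700146 (GRCh37), each written 5′ to 3′ on the strand of its gene, with the exonic bases in capitals.
RP4-734G22.3, plus strand: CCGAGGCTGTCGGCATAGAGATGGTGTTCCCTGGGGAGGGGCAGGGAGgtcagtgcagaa
CASZ1, minus strand: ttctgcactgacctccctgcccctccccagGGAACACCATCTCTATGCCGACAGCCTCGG
The exon of RP4-734G22.3 ended at position 10700134 and the coding exon of CASZ1 began at position 10700116. The 48 exonic bases shown for RP4-734G22.3 thus include the reverse complement of all 30 coding bases shown for CASZ1.

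RP4-734G22.3 (ENSG00000272078) is annotated as a lncRNA on the plus strand of chromosome 1, from 10699298 to 10714390, with 2 exons. Its first exon, 10699298 to 10700134, holds 837 bases, of which 819 lie opposite CASZ1 coding sequence, and its last exon, 10707305 to 10714390, holds 7086 bases, of which 2837 lie opposite CASZ1 exons and 1660 opposite coding sequence. In all, 46.1% of its 7923 exonic bases lie opposite CASZ1 exons. CASZ1 (ENSG00000130940) lies on the minus strand from 10696661 to 10856707, and 32.2% of its 11336 exonic bases are covered by RP4-734G22.3.

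CTC-564N23.2 (ENSG00000250615) is a much shorter lncRNA on the plus strand of chromosome 5, from 76369706 to 76370345, with exons of 357 and 28 bases. All 385 exonic bases lie opposite a single exon of ZBED3 (ENSG00000132846, minus strand, 76367897 to 76383110), in its non-coding part. They cover 5.95% of the 6476 exonic bases of ZBED3. ZBED3-AS1 (ENSG00000250802), another lncRNA row, also overlaps ZBED3 exons, by 175 bases. RP5-977B1.11 (ENSG00000259716) and RP11-154D6.1 (ENSG00000232295) were not matched to the annotation, so no position is given for them.

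**Figure D1:**
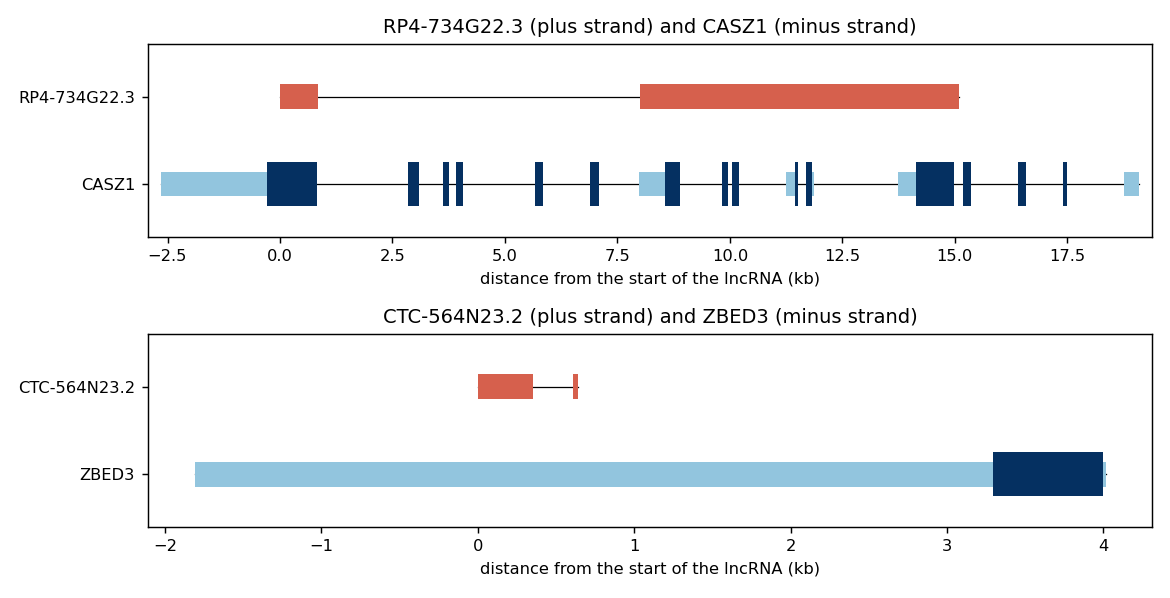
Exons of each opposite-strand pair in the region around the lncRNA, drawn to scale, with distance in kilobases on the x axis and 1 track per gene, lncRNA exons in red, coding exonic bases in dark blue and other exonic bases in light blue. CASZ1 and ZBED3 have 24 and 4 exon blocks in all, and those farther from the lncRNA are not drawn. RP4-734G22.3 faces CASZ1 exons with 46.1% of its exonic bases, and CTC-564N23.2 lies wholly within 1 ZBED3 exon.

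The libraries held between 675609 and 792282 counts (median 755562), so that 3 counts stood for 3.79 to 4.44 CPM (counts scaled to a common library total), and counting error is a large part of any value near that level. All 9 epithelial and basal markers listed had counts, with a sum of 2545 to 4594 CPM per library. Of 6 markers of other cell types in the table PTPRC, CDH5, DCN and DES were at 0, and the sum reached at most 16.7 CPM. The limit on strand given above holds for these rows too, so a 0 is not read as absence of the gene's RNA. ZNF10, the gene that KRAB domains are commonly taken from, had 2 to 16 counts in each repressive library and 0 in the 12 others. This is a check of the repressive label only.

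In both pairs the lncRNA row held nearly all of the counts. RP4-734G22.3 had 7963 counts over the 18 libraries and CASZ1 had 136, so that the lncRNA row held 98.3% of the pair's counts, with 96.0% to 100% in single libraries. In reads per kilobase of annotated exon at a common depth (RPKM, from CPM and exon length), RP4-734G22.3 stood at 75.0 ± 19.1 and CASZ1 at 0.888 ± 0.635 (mean ± SD over 18 libraries), a ratio of 84.4.

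CTC-564N23.2 had 1318 counts and ZBED3 had 110. The lncRNA row held 92.3% of the counts of this pair, with 81.9% to 100% in single libraries. Its RPKM was 254 ± 95.6, against 1.26 ± 0.989 for ZBED3, a ratio of 201. The counts per annotated exon length of CTC-564N23.2 were thus above those of RP4-734G22.3, although its counts were fewer, since its exons are short. The share of exonic bases opposite the partner's exons differs between the rows, at 100% and 46.1%, so their levels are not ranked by this. The lengths are from the annotation used here, and the release used for the counts is not given.

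**Figure D2:**
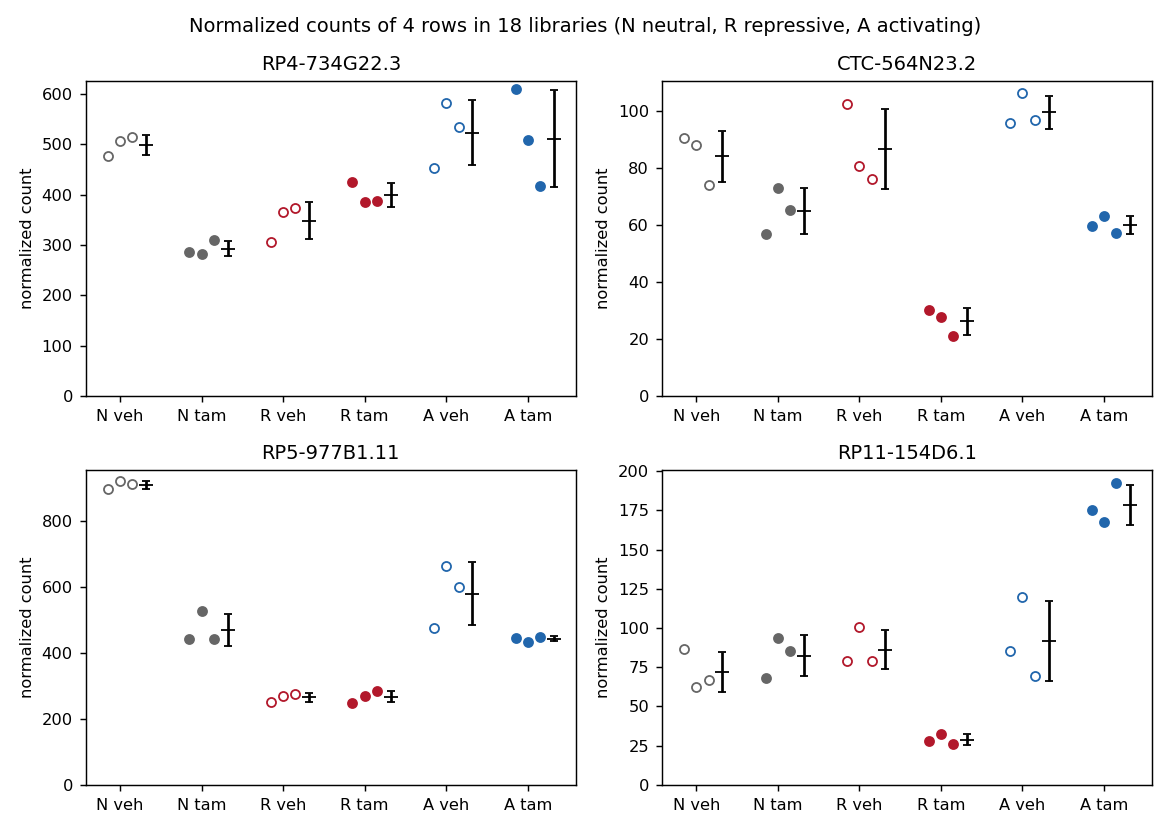
Normalized counts of RP4-734G22.3, CTC-564N23.2, RP5-977B1.11 and RP11-154D6.1 on the y axis in each of the 6 groups on the x axis, with 1 point per library, open for vehicle and filled for tamoxifen, and black bars for mean ± SD (n = 3). RP4-734G22.3 was lowest in the neutral line with tamoxifen, at 293 ± 14.3, RP5-977B1.11 highest in the neutral line with vehicle, at 911 ± 12.6, and CTC-564N23.2 and RP11-154D6.1 lowest in the repressive line with tamoxifen, at 26.3 ± 4.76 and 28.95 ± 3.23.

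Normalized counts below are counts divided by the DESeq2 size factor of the library, and log2 fold changes come from 1 DESeq2 fit over all 18 libraries. DESeq2 adjusted p-values only over the genes kept by its filter on the mean count, which differed by comparison. For tamoxifen against vehicle it kept 1193, 4575 and 1644 of 5816 tested genes in the neutral, repressive and activating line. Shares of genes called are given over all 5816, so they include genes that could not be called. Comparisons that use the same group share its 3 libraries, so they are not independent of each other. In bulk RNA, fewer cells that express a gene and less of its RNA per cell cannot be told apart.

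RP4-734G22.3, opposite CASZ1, was lower with tamoxifen in the neutral line. In the neutral line its normalized counts were 477, 506 and 514 with vehicle and 287, 283 and 309 with tamoxifen. The groups did not overlap, which held for 6.65% of tested genes in this direction. The log2 difference, tamoxifen minus vehicle, was -0.77 (SE 0.13), a level 0.587 times that with vehicle. This fall was the basis of the row's choice.

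In the repressive line RP4-734G22.3 had 306, 367 and 374 normalized counts with vehicle and 426, 385 and 387 with tamoxifen. Every tamoxifen library lay above every vehicle library, which 12.6% of all tested genes did, while the log2 difference of 0.20 (SE 0.13, 95% interval -0.05 to 0.44, DESeq2 adjusted p 0.381) did not pass the test. In CPM, which uses total counts and no size factor, the same groups overlapped, with 438, 519.5 and 514 against 564, 491 and 485. In the activating line the row had 453.5, 582 and 534 with vehicle and 609, 508 and 416 with tamoxifen, with overlap. There the log2 difference was -0.03 (SE 0.12, adjusted p 0.918).

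The vehicle libraries of RP4-734G22.3 already differed between lines. The repressive libraries, at 349 ± 37.4 normalized counts (SD, n = 3), lay below the neutral ones, at 499 ± 19.7, and below the activating ones, at 523 ± 65.0, with no overlap. Of all tested genes, 8.36% lay so against the neutral line and 7.58% against the activating line. The log2 differences were -0.52 (SE 0.12) for repressive minus neutral, 0.07 (SE 0.12) for activating minus neutral and 0.58 (SE 0.12) for activating minus repressive. Neutral and activating libraries overlapped.

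Ordered by mean, RP4-734G22.3 was highest in the activating line with vehicle (523), followed by the activating line with tamoxifen (511 ± 96.4) and the neutral line with vehicle (499). These groups overlapped each other. The repressive line with tamoxifen (399 ± 23.1) came next and overlapped the activating libraries with tamoxifen, and the repressive line with vehicle (349) overlapped the neutral line with tamoxifen (293), the lowest. With tamoxifen, the activating line exceeded the repressive line by 0.35 in log2 (SE 0.12, DESeq2 adjusted p 0.0445), where 10.5% of tested genes were called. These 3 against 3 libraries overlapped, and the call was lost with edgeR (adjusted p 0.0515) and when single libraries were left out. The adjusted p was 0.348 and 0.103 without replicates 1 and 2 of the activating tamoxifen group, 0.13 and 0.148 without replicates 2 and 3 of the repressive tamoxifen group, and 0.0503 to 0.0523 without replicate 3 of the activating vehicle, 1 of the neutral tamoxifen or 2 of the neutral vehicle group.

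The CASZ1 row held few counts. Its counts in the neutral line were 5, 10 and 4 with vehicle and 3, 9 and 2 with tamoxifen, and in the repressive line 9, 7 and 2 with vehicle and 11, 0 and 6 with tamoxifen. In the activating line they were 4, 9 and 10 with vehicle and 7, 23 and 15 with tamoxifen. Vehicle and tamoxifen libraries overlapped in every line.

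None of the CASZ1 tamoxifen effects passed the test. The log2 differences were -0.45 (SE 0.84, 95% interval -2.09 to 1.19) in the neutral line, 0.06 (SE 0.83, -1.57 to 1.68) in the repressive line and 0.99 (SE 0.76, -0.51 to 2.48) in the activating line. DESeq2 gave no adjusted p for them because of the low counts. Without that filter on the mean count, the adjusted p-values were 0.955, 0.984 and 0.725.

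With tamoxifen CASZ1 was highest in the activating line, at 14.1 ± 7.16 normalized counts against 4.56 ± 3.67 in the neutral and 5.65 ± 5.37 in the repressive line. The log2 difference from the neutral line was 1.63 (SE 0.80, unadjusted p 0.042, DESeq2 adjusted p 0.381 without the filter on the mean count), and the libraries overlapped. The fall of RP4-734G22.3 with tamoxifen in the neutral line, by 0.77, lies within the interval of the CASZ1 difference there, as does no difference, so the 2 rows of the locus could not be compared at these counts.

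**Figure D3:**
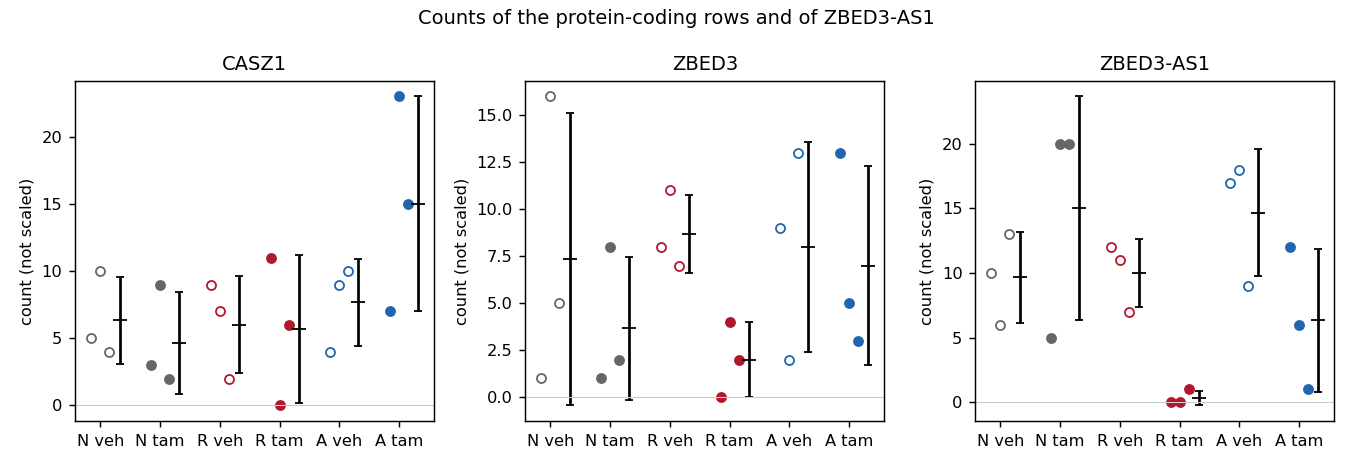
Counts per library of the sparse rows at both loci on the y axis, by group on the x axis, 1 point per library, open for vehicle and filled for tamoxifen, with black bars for mean ± SD (n = 3). CASZ1 reached at most 23 counts and ZBED3 at most 16 in any library.

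CTC-564N23.2, opposite ZBED3, was lower with tamoxifen in the repressive and the activating line. In the repressive line its normalized counts were 102.5, 80.8 and 76.3 with vehicle and 30.1, 27.9 and 21.0 with tamoxifen. The groups did not overlap, as in 11.6% of tested genes in this direction, and the log2 difference of -1.72 (SE 0.25), a level 0.305 times that with vehicle, was the basis of the row's choice.

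In the activating line, whose tamoxifen effect did not choose the row, CTC-564N23.2 had 95.7, 106 and 96.8 normalized counts with vehicle and 59.8, 63.3 and 57.1 with tamoxifen. The groups did not overlap, with all tamoxifen libraries lower, as in 8.18% of tested genes, and the fall of 0.73 on the log2 scale (SE 0.22) passed the test (DESeq2 adjusted p 0.0119). The call was lost with edgeR (adjusted p 0.0722), in a fit of the 6 activating libraries alone (0.0591) and without replicate 1 or 3 of the tamoxifen group or replicate 2 of the vehicle group (0.0621, 0.0863 and 0.0977). Of the 5 members not chosen by the tamoxifen effect in this line, 2 were called, this one and RP11-154D6.1, where 2.80% of all tested genes were (edgeR called 1, RP11-154D6.1). The vehicle libraries of this line were part of the choice of both rows, so nothing is read from that count.

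The neutral line had 90.55, 88.0 and 73.9 normalized counts of CTC-564N23.2 with vehicle and 56.9, 73.1 and 65.1 with tamoxifen. Here too all tamoxifen libraries lay lower, as 6.65% of tested genes did, but the log2 difference of -0.37 (SE 0.22, 95% interval -0.80 to 0.06, adjusted p 0.427) did not pass. None of the 4 members not chosen by the tamoxifen effect in the neutral line was called there by DESeq2 or by edgeR or had an unadjusted p under 0.05, against 0.774% of all genes called. The difference between the effects in the activating and the neutral line was -0.36 (SE 0.31, 95% interval -0.96 to 0.24, DESeq2 adjusted p 0.681), so the fall in the activating line was not shown to exceed that in the neutral line.

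The effect on CTC-564N23.2 in the repressive line was 1.34 lower in log2 than in the neutral line (SE 0.33) and 0.99 lower than in the activating line (SE 0.33), as a description, since the first of these effects chose the row. With vehicle the 3 lines were close, at 84.2 ± 8.97 in the neutral, 86.55 ± 14.04 in the repressive and 99.6 ± 5.76 in the activating line. Activating libraries lay above all neutral ones (log2 0.24, SE 0.21), as for 6.71% of tested genes, and the other line pairs overlapped. With tamoxifen the neutral (65.0 ± 8.11) and activating (60.1 ± 3.08) lines overlapped (log2 -0.11, SE 0.22, adjusted p 0.857), and the repressive line (26.3 ± 4.76) lay below both, as 12.8% of tested genes did against the neutral line and 12.4% against the activating line.

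The ZBED3 row was as sparse as that of CASZ1. In the repressive line its counts were 8, 11 and 7 with vehicle and 0, 4 and 2 with tamoxifen, so that the groups did not overlap, which held for 11.6% of tested genes in this direction. The log2 difference was -1.87 (SE 1.03, 95% interval -3.89 to 0.15, unadjusted p 0.0689), DESeq2 gave no adjusted p, and without its filter on the mean count the adjusted p was 0.31. Of the 3 members not chosen by the tamoxifen effect in this line, RP4-734G22.3, CASZ1 and ZBED3, none was called by DESeq2 or edgeR or had an unadjusted p under 0.05, where 9.65% of all genes were called.

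In the neutral line ZBED3 had 1, 16 and 5 counts with vehicle and 1, 8 and 2 with tamoxifen, and in the activating line 9, 2 and 13 with vehicle and 13, 5 and 3 with tamoxifen. Both pairs of groups overlapped widely. The log2 differences were -0.99 (SE 0.96, 95% interval -2.88 to 0.90) and -0.11 (SE 0.91, -1.89 to 1.68).

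The other antisense row of this locus, ZBED3-AS1, had 12, 11 and 7 counts in the repressive line with vehicle and 0, 0 and 1 with tamoxifen. The tamoxifen level was 0.0348 times the vehicle level by summed counts of 1 and 30, with an exact Clopper-Pearson 95% interval from counting error of 0.000853 to 0.209, and the DESeq2 test of the log2 difference gave an adjusted p of 0.00766. That p was 0.0785 when replicate 1 of the repressive tamoxifen group was left out, and DESeq2 gave none in a fit of the 6 repressive libraries or without any of 6 other single libraries. In the other lines ZBED3-AS1 had 10, 6 and 13 counts with vehicle and 5, 20 and 20 with tamoxifen (neutral) and 17, 18 and 9 against 12, 6 and 1 (activating). Neither difference was called by edgeR, and DESeq2 gave no adjusted p for either.

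PDE8B, a cyclic nucleotide phosphodiesterase gene, was the only other tested row within 500 kb of ZBED3 or CTC-564N23.2, and it lies opposite WDR41. It went from 257 ± 20.2 to 197.5 ± 10.5 normalized counts in the repressive line, a fall of 0.38 on the log2 scale (SE 0.13, DESeq2 adjusted p 0.0369), which edgeR did not call (adjusted p 0.0682). The call was also lost in a fit of the 6 repressive libraries (0.0933), without any 1 of the repressive tamoxifen replicates 1, 2 and 3 (0.0704, 0.0614 and 0.158) and without replicate 2 or 3 of the repressive vehicle group (0.118 and 0.162). With vehicle, PDE8B was already lower in the repressive than the neutral line (log2 -0.51, DESeq2 adjusted p 0.0028). The activating line with vehicle was also below the neutral one (-0.50, 0.0044), which edgeR did not call. There 88 and 40 of 5816 genes were called lower. With tamoxifen the repressive and activating lines again lay below the neutral line (log2 -0.81 and -0.66, DESeq2 adjusted p 2.75e-08 and 1.66e-05). Of 5816 genes, 330 and 106 were called lower in these 2 comparisons. For tamoxifen against vehicle in the repressive line, both tested neighbours of ZBED3 were called lower by DESeq2, out of 21 rows of the table in this window. In that comparison 9.65% of all tested genes were called in either direction, and 234 of 5816 were called lower. Around CASZ1 and RP4-734G22.3, 10 of 36 rows within 500 kb were tested, and none was called in any of 12 comparisons by DESeq2 or edgeR, with 4 tests in all at an unadjusted p under 0.05. For tamoxifen against vehicle, DESeq2 gave an adjusted p to 1, 9 and 2 of these 10 rows in the neutral, repressive and activating line. Their median log2 differences with tamoxifen were -0.19, -0.05 and -0.06 in the neutral, repressive and activating line, against 0.00, -0.02 and 0.00 over all tested genes.

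RP11-154D6.1 was the row whose level with tamoxifen lay on opposite sides in the effector lines. In the repressive line its normalized counts were 78.8, 101 and 79.0 with vehicle and 28.1, 32.5 and 26.2 with tamoxifen, a log2 difference of -1.58 (SE 0.26) that chose the row. In the activating line, whose tamoxifen effect did not choose it, they were 85.6, 120 and 69.7 with vehicle and 175, 167.5 and 193 with tamoxifen. All activating tamoxifen libraries lay above all activating vehicle libraries, as 7.84% of tested genes did.

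The rise of RP11-154D6.1 in the activating line was 0.96 in log2 (SE 0.21), a level 1.95 times that with vehicle, and it passed the test (DESeq2 adjusted p 1.73e-04). 1.34% of tested genes were called higher there. This call held in every alternative and with any single library left out, though the vehicle libraries compared were part of the row's choice.

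In the neutral line RP11-154D6.1 had 86.4, 62.2 and 67.0 normalized counts with vehicle and 68.4, 93.5 and 85.5 with tamoxifen, with overlap and a log2 difference of 0.20 (SE 0.23, 95% interval -0.24 to 0.64, adjusted p 0.775). The effect in the activating line exceeded that in the neutral line by 0.76 (SE 0.31, 95% interval 0.16 to 1.37), which had an unadjusted p of 0.0131 and did not pass (DESeq2 adjusted p 0.191), where 0.619% of tested genes were called. With tamoxifen the activating libraries lay above the neutral ones with no overlap, which 8.73% of tested genes did, at 178 ± 12.8 against 82.5 ± 12.8. That log2 difference of 1.114 (SE 0.21) passed (DESeq2 adjusted p 1.05e-05), where 3.09% of tested genes were called. It includes the difference between these lines with vehicle, 0.35 in log2 (SE 0.22), so it is not a measure of the tamoxifen effect alone. RP11-154D6.1 was 1 of 4 members whose choice did not use these groups, and the only one called.

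With vehicle RP11-154D6.1 did not separate the lines. The means were 71.85 ± 12.8 in the neutral, 86.1 ± 12.5 in the repressive and 91.7 ± 25.6 in the activating line, all overlapping, with log2 differences between 0.09 and 0.35. The order of the 6 groups therefore had 4 that overlapped in its middle, the activating line with tamoxifen above them and the repressive line with tamoxifen below. The 2 ends differed by 2.63 in log2 (SE 0.25), as a description.

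**Figure D4:**
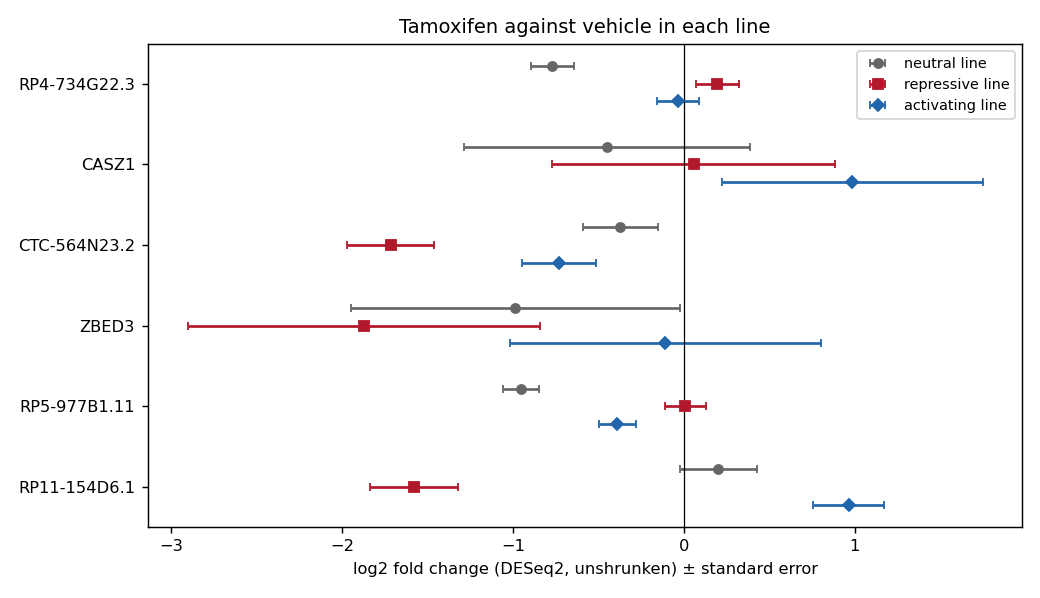
Log2 differences, tamoxifen minus vehicle, on the x axis for each of the 6 rows on the y axis, with grey for the neutral, red for the repressive and blue for the activating line and bars of 1 SE. RP11-154D6.1 lay at -1.58 in the repressive and 0.96 in the activating line, and the bars of CASZ1 and ZBED3 were the widest, with SE between 0.76 and 1.03.

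RP5-977B1.11 was the most abundant of the 6 rows by normalized counts and had the largest differences between lines with vehicle among them. Its normalized counts with vehicle were 897, 922 and 913 in the neutral line, 252, 270.4 and 276.5 in the repressive line and 477.5, 664 and 602 in the activating line. No 2 of these groups overlapped. The repressive and activating groups lay below the neutral one, as 8.36% and 6.38% of tested genes did, and the activating above the repressive one, as 7.58% did. The log2 differences were -1.77 (SE 0.11) for repressive minus neutral, -0.65 (SE 0.10) for activating minus neutral and 1.13 (SE 0.11) for activating minus repressive.

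With tamoxifen RP5-977B1.11 had 442, 527 and 442 normalized counts in the neutral line, 249, 270.4 and 284 in the repressive line and 446, 435 and 449.6 in the activating line. The level in the neutral line was thus 0.516 times that with vehicle (log2 -0.95, SE 0.11), and in the activating line it was 0.764 times (log2 -0.39, SE 0.11), both with no overlap. Of all tested genes, 6.65% and 8.18% lay lower in this way. In the repressive line vehicle and tamoxifen overlapped, at 266 ± 13 and 268 ± 17.4 (log2 0.01, SE 0.12). With total-count scaling this value was -0.12.

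From high to low, RP5-977B1.11 ran from the neutral line with vehicle (911) to the activating line with vehicle (581 ± 95.1), the neutral line with tamoxifen (470.3 ± 49.1), the activating line with tamoxifen (444 ± 7.35) and the repressive line (268 with tamoxifen and 266 with vehicle). The middle 3 overlapped their neighbours, and the neutral vehicle and repressive groups stood apart.

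Side by side, the 4 abundant rows had different orders of the lines with vehicle. The repressive line was lowest for RP4-734G22.3 and RP5-977B1.11 and did not separate from both other lines for CTC-564N23.2 and RP11-154D6.1. The groups of the repressive and neutral lines did not overlap for 2 of the 6 members, both lower in the repressive line, against 8.36% of tested genes. Since the vehicle differences were part of the choice, nothing is read from that count. CASZ1 and ZBED3 had log2 differences between -0.17 and 0.36 with vehicle, all overlapping.

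**Figure D5:**
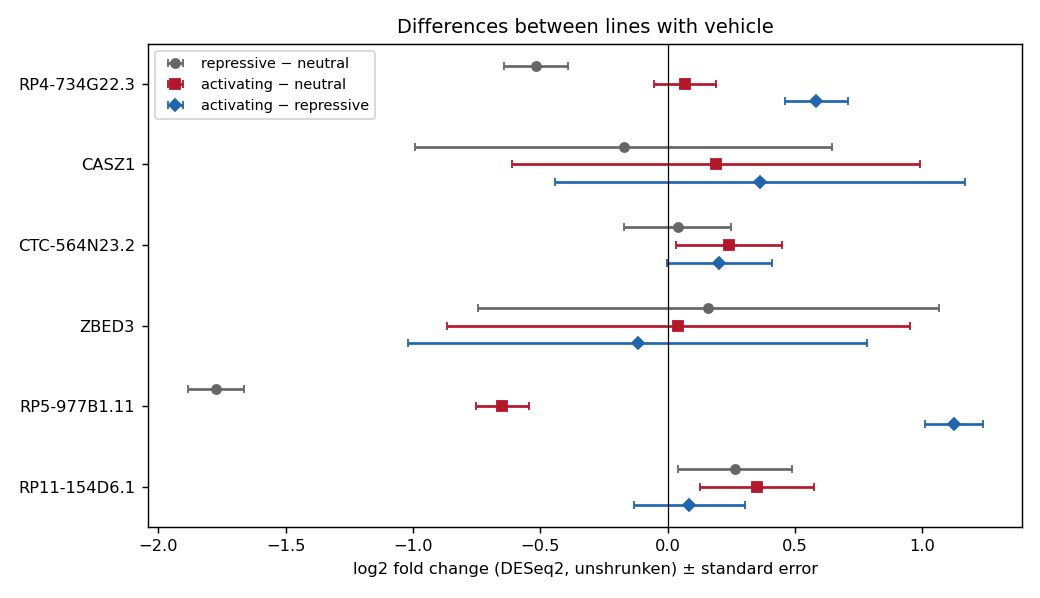
Log2 differences between lines with vehicle on the x axis for each of the 6 rows on the y axis, with grey for repressive minus neutral, red for activating minus neutral and blue for activating minus repressive, and bars of 1 SE. RP5-977B1.11 had the lowest value, at -1.77 for repressive minus neutral, while RP11-154D6.1 lay between 0.09 and 0.35 in all 3.

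Rows named for genes whose products work with ZBED3 or CASZ1 were followed in the same fit. The limit on strand given above holds for all rows of this and the next paragraph, so they are not taken as levels of those genes. Of 36 Wnt and Axin genes listed, 14 were tested. DESeq2 called 1 higher and 1 lower in the repressive line and 1 higher in the activating line, 2 and 1 of 14 where 9.65% and 2.80% of all tested genes were called. In the neutral line DESeq2 and edgeR called none, with 2 at an unadjusted p under 0.05. DESeq2 gave an adjusted p to only 1, 11 and 1 of the 14 in the neutral, repressive and activating line, so it could not call the others. CSNK1D, a casein kinase that acts on the Axin complex and whose exons overlap those of ENSG00000280407 on the other strand by 1262 bases, rose from 140 ± 22.4 to 212 ± 13.3 normalized counts in the repressive line (log2 0.60, SE 0.18, adjusted p 0.00825) and from 107 ± 18.01 to 180.3 ± 21.3 in the activating line (log2 0.76, SE 0.18, adjusted p 9.32e-04). The call in the repressive line was lost with total-count scaling (0.0721) and without replicate 1 of the tamoxifen or 3 of the vehicle group (0.0546 and 0.0781). DVL1, which relays the Wnt signal from the receptor and lies opposite TAS1R3, fell from 48.3 ± 2.76 to 24.9 ± 6.92 in the repressive line (log2 -0.94, SE 0.33, adjusted p 0.0386), a call that was lost in a fit of the 6 repressive libraries (0.0779), with a replicate block (0.0565), and without replicate 2 or 3 of the tamoxifen group (0.19 and 0.082) or any replicate of the vehicle group (0.0797 to 0.118). In the neutral line DVL1 went the other way, from 24.7 ± 6.50 with vehicle to 52.2 ± 5.73 with tamoxifen, and was not called. In the activating line it had 44.7 ± 19.3 and 43.5 ± 6.02. Its effect in the repressive minus the neutral line was -2.02 in log2 (SE 0.47, DESeq2 adjusted p 6.83e-04), where 136 genes were called higher and 88 lower of 5816. The median log2 differences of the list were -0.04, 0.02 and 0.10 in the neutral, repressive and activating line.

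CASZ1 is known to work with the NuRD chromatin remodelling complex. Of 15 NuRD subunits listed, 12 were tested, and RBBP4, a histone-binding subunit that lies opposite SYNC, was the only one called with tamoxifen, 1 of 12 where 9.65% of all tested genes were called. It rose in the repressive line from 210.2 ± 55.1 to 338 ± 53.6 normalized counts (log2 0.68, SE 0.17, adjusted p 0.00112). In the neutral and activating lines DESeq2 and edgeR called none, with 0 and 1 at an unadjusted p under 0.05, but DESeq2 gave an adjusted p to only 1 and 2 of the 12 there. The median log2 differences of the list were 0.13, 0.08 and -0.34 in the neutral, repressive and activating line. Of the 6 BED zinc finger genes found, 3 were tested, ZBED3 among them, and neither tool called one in any of the 12 comparisons, with 2 tests at an unadjusted p under 0.05 and medians with tamoxifen of -0.99, 0.35 and 0.19. For these tamoxifen effects DESeq2 gave an adjusted p to 0, 2 and 0 of the 3 in the neutral, repressive and activating line.

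Other genes followed the members' patterns over the 6 group means. The distance used was the root mean square difference of centred log2 values, and the candidates were 1458 tested genes. Nearest to RP4-734G22.3 were MTX1 (0.128), MASTL (0.143) and PFDN6 (0.166), where the median candidate stood at 0.372. Nearest to CTC-564N23.2 were CTD-2510F5.4 (0.182), RP11-12A20.7 (0.215) and RP1-191J18.66 (0.231), with a median of 0.638. Nearest to RP5-977B1.11 were SEMA4D (0.223), PPIL2 (0.276) and HOXD3 (0.304), with a median of 0.631. Nearest to RP11-154D6.1 were KRT6A (0.382), a keratin of stressed and wounded epithelium, CEBPD (0.418), a C/EBP family transcription factor, and RP11-66B24.4 (0.424), with a median of 0.786. Of these 12 rows all but KRT6A and CEBPD had exons opposite those of another gene. All points share the same 18 libraries, and the lists are a description.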

How the data were processed

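Total RNA of 18 RWPE1 MACC cultures was made into stranded mRNA libraries and sequenced. The deposited gene table holds estimated counts that the authors made with Salmon 1.9.0 against GRCh37, summed per gene, with 1.10% of values not whole. The submitters' processing notes also name DESeq2 1.28.0. The strand setting and the annotation release are not given in the sources used here.

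Estimated counts were rounded. Rows with 10 counts or more in 3 or more libraries were kept, 5816 genes with 97.6% of all counts. DESeq2 1.42.0 (R 4.3.3) was fitted with 1 mean per group over all 18 libraries. Wald tests covered 12 comparisons: tamoxifen minus vehicle in each line, their differences between lines, and differences between lines with vehicle and with tamoxifen. A gene was called at a Benjamini-Hochberg adjusted p under 0.05. DESeq2 adjusted over the genes kept by its filter on the mean count, and edgeR over all genes tested. The filter kept 517 genes for activating against neutral with vehicle and all 5816 for activating against repressive with tamoxifen. A gene without an adjusted p counted as not called. p-values measure the spread between these libraries. Intervals given from counts cover counting error only. Depth was 675609 to 792282 counts per library.

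The members and lists were chosen with earlier results of these data known. Further genes were named as the 3 nearest in pattern to each abundant member, as called neighbours within 500 kb, or as called list members. Positions and overlaps came from GENCODE lifted to GRCh37, which matched 4 of 6 members. Results on some listed items are not reported here. Alternatives were edgeR 4.0.16 quasi-likelihood with TMM, total-count scaling, other count filters, independent filtering off, fits of fewer libraries, a replicate block and leaving out each library. On simulated data for tamoxifen in the repressive line (5816 genes), DESeq2 recovered 69% of 2-fold and 98% of 4-fold changes, and edgeR 67% and 92%. False calls were 12 of 179 with DESeq2 and 4 of 163 with edgeR. The spread was drawn from the fitted trend. Changes were planted only in genes with higher mean counts than CASZ1, ZBED3 and ZBED3-AS1, so the recovery does not cover such sparse rows.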

Additional observations from a re-analysis of the deposited data

Results flagged for a closer look

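For RP4-734G22.3, all neutral libraries with tamoxifen lay below those with vehicle and all repressive libraries with tamoxifen lay above those with vehicle on normalized counts. Taken singly, 6.65% and 12.6% of all tested genes did so. The tamoxifen effect in the repressive line minus that in the neutral line was 0.96 in log2. This difference was not tested, because the effect in the neutral line chose the row, and with total-count scaling the effect in the repressive line was 0.07.

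For RP11-154D6.1, all activating libraries with tamoxifen lay above their vehicle group and all repressive libraries with tamoxifen lay below theirs. Taken singly, 7.84% and 11.6% of all tested genes did so. The effect in the activating line minus that in the repressive line was 2.54 in log2. The difference was not tested, because the effect in the repressive line chose the row.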

How the results depend on the processing

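At 675609 to 792282 counts per library, the CASZ1 and ZBED3 rows had few counts and wide intervals, and the parts of depth and of strand assignment in this were not tested. Among the member and gene-count values, 15 of those under alternatives other than leaving out a library moved, 4 lost a call, and the other 422 kept their side of the threshold or stayed within the spread. No called value changed sign, but 5 others did, such as CASZ1 with tamoxifen in the repressive line (from 0.06 to -0.07 with total-count scaling) and ZBED3 with vehicle in the activating minus the repressive line (from -0.12 to 0.08 with the replicate block), and so did 36 when single libraries were left out. With total-count scaling, RP4-734G22.3 had 0.84 for the effect in the repressive minus the neutral line and 0.37 for the same lines with tamoxifen, RP5-977B1.11 had -0.12 for tamoxifen in the repressive line, 0.83 for the effect in the repressive minus the neutral line, -0.25 for the activating minus the repressive line and 0.90 for these lines with tamoxifen, and RP11-154D6.1 had 2.80 for the last. The higher level of RP4-734G22.3 in the activating than the repressive line with tamoxifen was 0.35 with edgeR (adjusted p 0.0515) and 0.21 to 0.48 without single libraries. The tamoxifen effect on CTC-564N23.2 in the activating line was -0.73 with edgeR and -0.73 in a fit of the 6 activating libraries, and -0.77 to -0.68 without single libraries, and the activating minus repressive effect on RP11-154D6.1 was 2.38 to 2.78. Genes called with tamoxifen in the neutral line numbered 45, with 22 by edgeR, 26 with independent filtering off and 25 to 53 without single libraries. In the activating line there were 163, with 102 by edgeR and 94 to 156. Their difference from the neutral line gave 36, with 17 by edgeR, 22 with filtering off and 23 to 38. With vehicle, activating against neutral gave 47, with 4 by edgeR, 8 with filtering off, 29 with total counts and 2 to 53, repressive against neutral 97 to 152 and activating against repressive 65 to 107. The cause of these changes was not tested.

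With the replicate number as a block, the difference of RP4-734G22.3 between the activating and repressive lines with tamoxifen was 0.35 (adjusted p 0.0646) and lost its call. Deviations of same-numbered libraries had r between -0.03 and -0.0005 over 9 pairs, and those of differently numbered ones between -0.02 and 0.04 over 18 pairs. Same-numbered libraries were thus no more alike by this measure. Counting error is large at this depth, so a pairing of the cultures is not excluded by it.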
